A study of Mus musculus with 12 samples.

Results

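NF-kappaB is a family of transcription factors that switch on genes of inflammation, immunity and cell survival, and 10 genes that encode its subunits, its inhibitors and the kinase that frees it were followed across 3 mouse cell lines. They were Nfkb1, Nfkb2, Rel, Rela and Relb, which encode the 5 subunits, Nfkbia, Nfkbib and Nfkbie, which encode inhibitors of the IkB family, and Ikbkb and Ikbkg, which encode the catalytic beta subunit and the regulatory gamma subunit (NEMO) of the IkB kinase (IKK). The genes were taken by name, and each row of the array was tied to a gene through its transcript accession, which gave 10 of the 17277 genes with a symbol. They were measured by 33 probes, 3 for each gene except Ikbkg, which had 6 probes on 2 transcripts.

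The study measured mRNA in cell lines that are used to express and study G protein-coupled receptors. AtT20 is a mouse pituitary line of hormone-secreting corticotroph origin, BV2 is a mouse microglial line, and N18 is a mouse neuroblastoma line. The culture medium was DMEM, with 10% FBS and antibiotics, for all 3 lines, which received no treatment and were extracted at confluence under basal conditions, and the methods state that the BV2 cells were kept so as to favour a resting state. Each line gave 4 separately extracted plates, and each plate was hybridised to 1 array, so n = 4 for every line below. Each line is 1 immortalised stock that serves as a model of its cell type and is not the primary cell. The plates are separate cultures of 1 stock, so p-values measured the spread between plates of that stock.

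In resting cells the NF-kappaB dimers are held in the cytoplasm by IkB proteins. Receptors for cytokines and for microbial products act through adaptors and kinases on the IKK complex, which marks IkB for destruction and lets the dimers enter the nucleus. Several of the genes that NF-kappaB then switches on encode its own inhibitors and subunits, Nfkbia being the best known, and in microglia the pathway is known for driving inflammatory cytokines.

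Promoter windows are shown because several of the genes below are known targets of their own product. The windows are the 250 bases before a transcript start in RefSeq, in the mouse assembly GRCm38.p6, written along the strand of the gene. Capitals mark matches to the kappaB consensus, a degenerate 10-base motif that NF-kappaB dimers bind, searched on both strands. Neighbouring matches can overlap and then form 1 stretch. The 3 windows printed are those that lie outside the annotated gene and hold a match.
Nfkbia, chr12:55492648-55492897, minus strand: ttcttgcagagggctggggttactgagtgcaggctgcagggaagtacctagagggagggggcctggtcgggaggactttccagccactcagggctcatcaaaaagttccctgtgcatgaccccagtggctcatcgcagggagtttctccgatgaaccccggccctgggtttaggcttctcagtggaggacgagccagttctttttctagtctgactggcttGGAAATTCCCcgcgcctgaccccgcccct
Rel, chr11:23770970-23771219, minus strand: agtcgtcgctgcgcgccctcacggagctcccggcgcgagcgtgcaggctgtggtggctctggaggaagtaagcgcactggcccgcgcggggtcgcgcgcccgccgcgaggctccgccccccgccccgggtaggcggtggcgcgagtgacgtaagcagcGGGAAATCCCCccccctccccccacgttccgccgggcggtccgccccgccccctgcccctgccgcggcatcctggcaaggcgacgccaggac
Nfkbie, chr17:45555450-45555699, plus strand: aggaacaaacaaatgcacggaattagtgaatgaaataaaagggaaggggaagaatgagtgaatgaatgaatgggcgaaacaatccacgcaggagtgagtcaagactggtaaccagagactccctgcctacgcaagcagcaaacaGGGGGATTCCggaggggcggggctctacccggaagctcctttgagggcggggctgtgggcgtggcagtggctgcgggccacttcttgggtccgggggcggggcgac

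The match in the Nfkbia window lay 29 to 20 bases before the start, that in the Rel window 92 to 82 bases before it, and that in the Nfkbie window 106 to 97 bases before it. RefSeq windows were found for 7 of the 10 genes, and 4 genes had a consensus match in at least 1 window. Nfkb2 was the fourth, with GGGAATTCCC 39 to 30 bases before 1 of its starts, a window that lies inside the span of the gene. Of all 32841 mouse windows, 7.25% held the consensus. A match describes the letters in the window and is not a measured binding site.

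Levels are given on 2 log2 scales. The first is the level over the seminal proteins, which is the log2 intensity of a gene minus the mean of 10 seminal vesicle genes on the same plate. Those genes stand for no expression, and a gene counted as detected in a line when its mean level passed 2 SD of them. The threshold was 0.37 ± 0.11 in AtT20, 0.56 ± 0.15 in BV2 and 0.74 ± 0.10 in N18 (SD, n = 4). The second scale is the quantile-normalized log2 value, on which lines were compared with limma on the 8 arrays of each pair, with Benjamini-Hochberg adjustment over 25128 genes and transcripts and a call at adjusted p under 0.05. The seminal proteins themselves averaged 9.36 to 11.47 on the 12 arrays (log2), so the intensities still hold background light, and a difference in intensity is not a fold of mRNA. The size of a difference also depended on the scale, as for Nfkb1 in BV2 minus AtT20, at 2.91 after quantile normalization and 1.98 without. Levels of different genes were not set against each other, since their probes differ.

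The arrays labelled AtT20 stood apart from the rest. Their median log2 intensity was 10.85 to 11.50, against 9.90 to 10.54 on the other 8 arrays, and their interquartile range was 0.38 to 0.78, against 1.28 to 2.21. Of 10 corticotroph markers 2 were detected there. The defining pair was not, with Pomc at 0.29 ± 0.26 and Tbx19 at 0.02 ± 0.06 over the seminal proteins (SD, n = 4). The summed level of those 10 markers ran from 1.54 to 3.74 over those plates, from 1.58 to 2.05 over the BV2 plates and from 14.9 to 17.0 over the N18 plates. The labels of the other lines were borne out by their markers, with 9 of 11 microglia markers detected in BV2 and 3 in N18, and 13 of 14 neuroblastoma markers detected in N18 and 7 in BV2. On the AtT20-labelled plates 1 of the microglia and 8 of the neuroblastoma markers were detected. The summed level of the 14 neuroblastoma markers ran from 10.5 to 20.1 over those plates, from 6.20 to 8.37 over the BV2 plates and from 37.8 to 42.4 over the N18 plates. Cd14, a co-receptor for lipopolysaccharide, was at 5.53 ± 0.26 in BV2 and 0.16 ± 0.11 in N18, and Gap43, a growth cone protein, was at 0.34 ± 0.12 in BV2 and 5.05 ± 0.17 in N18 (level over the seminal proteins, SD, n = 4). BV2 against N18 was therefore taken as the main comparison, and the AtT20-labelled plates are described by their label.

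BV2 cells had detectable mRNA for 9 of the 10 genes, N18 cells for 8, and the AtT20-labelled plates for 5. Over all genes and transcripts the shares detected were 53.3% in BV2, 55.4% in N18 and 35% on the AtT20-labelled plates. With at least 2 probes above the threshold also required, the counts were 9, 8 and 4. Rela, Relb, Nfkbia and Ikbkg were detected in all 3 lines, Nfkb1, Nfkb2, Rel and Ikbkb in BV2 and N18, Nfkbib in BV2 and on the AtT20-labelled plates, and Nfkbie in none. On the AtT20-labelled plates Ikbkg was not detected under 4 of 13 settings, which include the main one. Rela and Relb were each lost there under 2 and Nfkbib under 1. In BV2 Nfkbib was not detected under 2 and Ikbkb under 1. In N18 Rel was not detected under 3, Rela under 2, and Nfkb2 and Ikbkb under 1 each. With olfactory receptor genes as controls the counts were 7 in BV2, 4 in N18 and 2 on the AtT20-labelled plates.

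**Figure D1:**
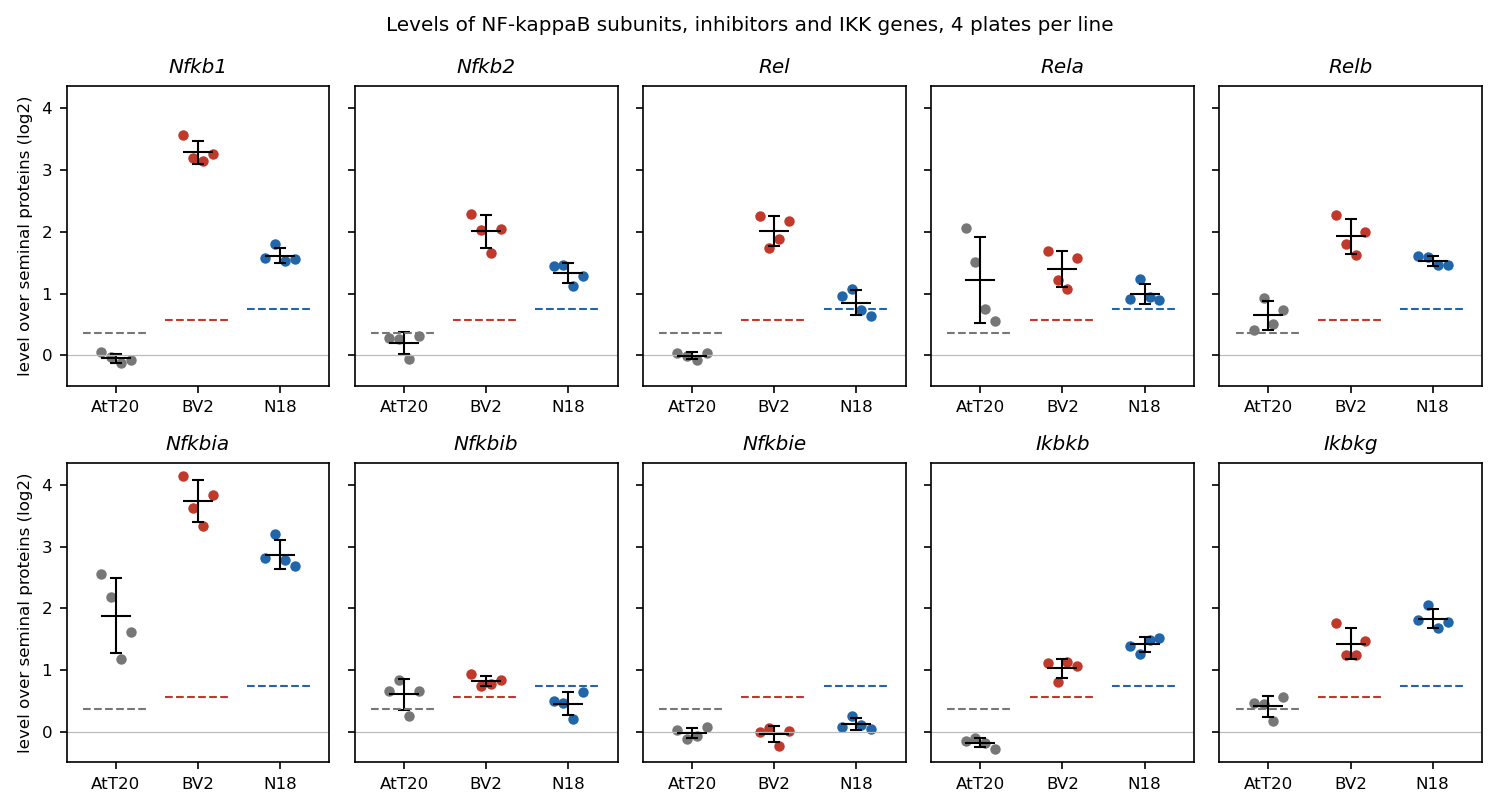
Level of each gene over the seminal proteins (log2, vertical axis) on the 4 plates of each line. Each point is 1 plate, black bars are the mean and SD, and the dashed lines are the detection thresholds of 0.37, 0.56 and 0.74. Nfkb1 and Rel were highest in BV2 and at background on the AtT20-labelled plates, and Nfkbie was under the threshold in all 3 lines.

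Of the 10 genes, 7 were higher in BV2 than in N18, and none was higher in N18. They were all 5 subunits and the inhibitors Nfkbia and Nfkbib, and both IKK genes and Nfkbie were not called. Among all genes and transcripts tested, 35.8% were called higher in BV2 and 25.9% higher in N18, 61.7% in all. The median difference of the 10 genes was 0.71, against 0.06 over everything tested (BV2 minus N18, quantile-normalized log2). For the same 7 genes all 4 BV2 plates were above all 4 N18 plates, and for none was it the reverse, against 31.9% and 23.5% of everything tested. Their 3 probes each did so too. In such bulk RNA, fewer cells that express a gene and less RNA per cell cannot be told apart.

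**Figure D2:**
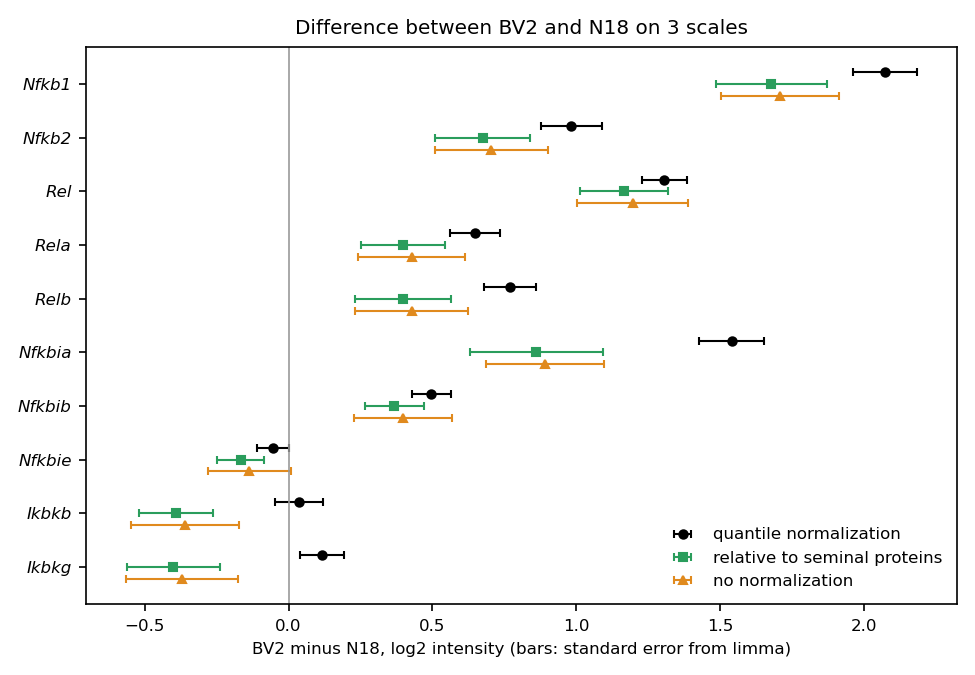
BV2 minus N18 for the 10 genes in log2 intensity (horizontal axis), with bars for the standard error from limma, on 3 scales. The 7 called genes stayed to the right of 0 on all 3 scales, and Ikbkb and Ikbkg moved from 0.04 and 0.12 after quantile normalization to -0.39 and -0.40 relative to the seminal proteins.

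Nfkb1, which encodes a precursor that is cut to a DNA-binding subunit with no activating domain of its own, had the widest gap among the 10 genes. Its quantile-normalized values were 13.04, 13.37, 13.21 and 12.83 on the 4 BV2 plates and 10.99, 11.07, 11.07 and 11.02 on the 4 N18 plates. The difference was 2.07 ± 0.11 (SE, limma adjusted p = 1.96e-09), a 4.21-fold difference in intensity. It was smaller on the other scales, at 1.71 without normalization and 1.68 relative to the seminal proteins. Every BV2 plate was above every N18 plate, by more than the spread within either line, and the 3 probes differed by 1.78 to 2.33. Over the seminal proteins the levels were 3.29 ± 0.19 in BV2, 1.61 ± 0.12 in N18 and -0.05 ± 0.07 on the AtT20-labelled plates (SD, n = 4), so the gene was detected in the first 2 and not in the last.

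Rel, which encodes the c-Rel subunit known mostly from blood and immune cells, had the next widest gap among the subunits. It read 11.81, 11.87, 11.84 and 11.82 on the BV2 plates and 10.58, 10.64, 10.51 and 10.39 on the N18 plates (quantile-normalized log2). The 4 BV2 plates were nearly equal, and the groups did not overlap. The difference was 1.31 ± 0.08 (SE, limma adjusted p = 4.96e-09), and it was 1.20 without normalization and 1.17 relative to the seminal proteins. In N18 the level over the seminal proteins was 0.85 ± 0.20 (SD, n = 4), just above the threshold of 0.74, with 3 of 4 plates above their own threshold.

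Nfkb2, the precursor of the subunit of the non-canonical pathway, read 11.83, 12.14, 11.61 and 11.72 on the BV2 plates and 10.90, 10.87, 10.78 and 10.82 on the N18 plates. The difference was 0.98 ± 0.11 (SE, limma adjusted p = 2.61e-06), and it was 0.70 without normalization and 0.67 relative to the seminal proteins. Relb, the usual partner of the Nfkb2 product, read 11.82, 11.94, 11.58 and 11.68 on the BV2 plates and 11.01, 10.95, 11.03 and 10.95 on the N18 plates. The difference of Relb was 0.77 ± 0.09 (SE, limma adjusted p = 5.67e-06). Both genes of the non-canonical dimer were thus higher in BV2 with no overlap of plates, and both were detected in N18 as well, at 1.33 ± 0.16 for Nfkb2 and 1.53 ± 0.08 for Relb over the seminal proteins (SD, n = 4).

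Rela, the main activating subunit of the canonical dimer and a gene used by most cells, differed least among the subunits. It read 11.35, 11.36, 11.04 and 11.35 on the BV2 plates and 10.55, 10.74, 10.65 and 10.56 on the N18 plates, a difference of 0.65 ± 0.09 (SE, limma adjusted p = 2.15e-05). The groups did not overlap after quantile normalization. Without normalization the difference was 0.43 and missed the threshold (limma adjusted p = 0.0504), as did that of Relb at 0.43 (limma adjusted p = 0.0646). Over the seminal proteins the Rela plates of the 2 lines overlapped, with 1.08 to 1.70 in BV2 and 0.89 to 1.24 in N18.

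The inhibitors split. Nfkbia, the IkB that is rebuilt fastest after NF-kappaB enters the nucleus, read 13.65, 13.82, 13.41 and 13.38 on the BV2 plates and 11.98, 12.11, 12.09 and 11.92 on the N18 plates. The difference was 1.54 ± 0.11 (SE, limma adjusted p = 4.55e-08), and its 3 probes differed by 1.29 to 1.66. It was smaller on the other scales, at 0.89 without normalization (limma adjusted p = 6.86e-05) and 0.86 relative to the seminal proteins (limma adjusted p = 0.00304). Nfkbia was detected on every plate of every line. Nfkbib, a slower IkB, read 10.75, 10.86, 10.75 and 10.72 on the BV2 plates and 10.28, 10.27, 10.14 and 10.40 on the N18 plates (limma adjusted p = 2.90e-05). In N18 it was under the threshold on all 4 plates, so that BV2 is only bounded as at least 1.0-fold higher, at 0.46 ± 0.18 over the seminal proteins, against 0.82 ± 0.09 in BV2 (SD, n = 4).

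Nfkbie, the gene of IkB-epsilon, was under the threshold on all 12 plates. Its levels over the seminal proteins were -0.02 ± 0.08 on the AtT20-labelled plates, -0.04 ± 0.13 in BV2 and 0.12 ± 0.09 in N18 (SD, n = 4). A level that low gives only an upper bound, and none of the differences of Nfkbie were read as differences in mRNA. Its promoter window held a consensus match, as did those of Rel, Nfkbia and Nfkb2, which were higher in BV2. The windows of Rela and Nfkbib held none, and both genes were higher in BV2 too. Those of Ikbkg, which was not called, held none either. Any link between a match and the level was not tested.

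The IKK genes were at like values in BV2 and N18 after quantile normalization. Ikbkb read 10.88, 10.92, 11.09 and 10.90 on the BV2 plates and 10.86, 10.74, 11.05 and 11.00 on the N18 plates. The plates overlapped, and the difference was 0.04 with a 95% interval from -0.15 to 0.22 (limma adjusted p = 0.729). Ikbkg read 11.40, 11.37, 11.21 and 11.24 in BV2 and 11.15, 11.24, 11.19 and 11.17 in N18, a difference of 0.12 with a 95% interval from -0.05 to 0.28 (limma adjusted p = 0.206). Relative to the seminal proteins both were called higher in N18 instead, Ikbkb at -0.39 (limma adjusted p = 0.0122) and Ikbkg at -0.40 (limma adjusted p = 0.0382). On that scale the median of all genes tested moved to -0.18 from 0.06. Without any normalization the differences were -0.36 and -0.37 and were not called.

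The 2 transcripts of Ikbkg did not move together. The 3 probes of 1 transcript were higher in BV2, by 0.30 to 0.52, and the 3 probes of the other were lower, at -0.14, -0.19 and -0.20, on the normalized log2 scale. The value of the gene is the mean of both. The partner kinase gene Chuk, the alpha subunit of IKK, was looked up after these values were seen. It was 0.71 ± 0.08 higher in BV2 (SE, limma adjusted p = 2.59e-06), and its plates overlapped between the lines relative to the seminal proteins.

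**Figure D3:**
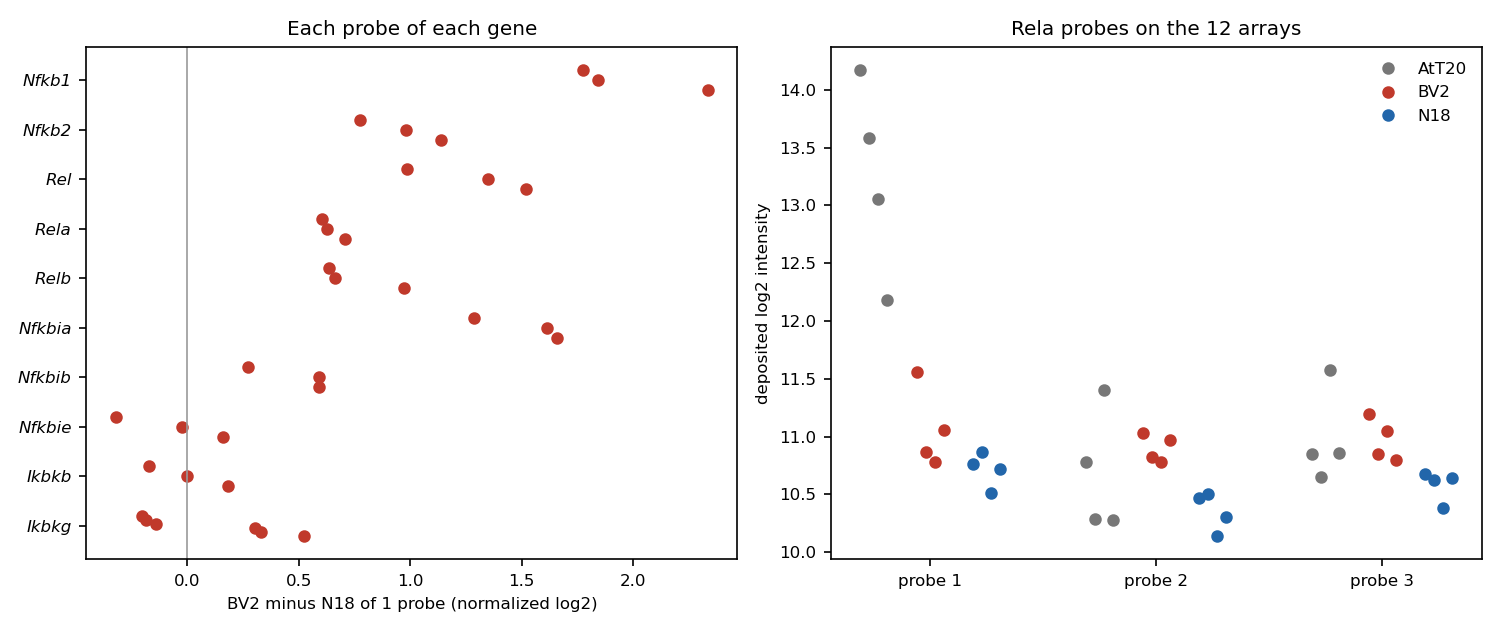
Left, BV2 minus N18 of each probe (normalized log2, horizontal axis), 1 point per probe. Right, deposited log2 intensity (vertical axis) of the 3 Rela probes on the 12 arrays. All probes of the 5 subunits, Nfkbia and Nfkbib lay above 0, and probe 1 of Rela stood at 12.19 to 14.17 on the AtT20-labelled plates while the other 2 did not.

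The plates labelled AtT20 held little signal for Nfkb1 and Rel. Relative to the seminal proteins, the 4 plates read 0.05, -0.03, -0.12 and -0.08 for Nfkb1 and 0.04, -0.01, -0.08 and 0.03 for Rel, all at background. BV2 was at least 2.9-fold higher for Nfkb1 and at least 1.2-fold higher for Rel. These bounds set the BV2 mean against the detection threshold on the AtT20-labelled plates and take the smallest of 3 scalings. The limma adjusted p was 1.60e-09 for Nfkb1 and 7.96e-08 for Rel. Nfkb2 was under the threshold there as well, at 0.20 ± 0.17 (SD, n = 4), and BV2 was at least 1.2-fold higher. That holds for the mean of its probes. Of its 3 probes, 1 was above the threshold on all 4 AtT20-labelled plates and read alike in BV2, with a difference of -0.01 (normalized log2).

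Against the AtT20-labelled plates, 5 of the 10 genes were called higher in BV2 and 3 lower. The shares over all genes and transcripts were 25% higher in BV2 and 43.8% higher on the AtT20-labelled plates, and 68.8% in all, with the median of all differences at -0.23. Every BV2 plate was above every AtT20-labelled plate for 5 genes and below for 3, against 22.9% and 39.7% of everything tested. Besides the 3 genes above, Nfkbia was higher in BV2 by 0.57 ± 0.14 (SE, limma adjusted p = 0.00307). Ikbkb was called higher in BV2 (limma adjusted p = 4.54e-06), but it was under the threshold on all 4 AtT20-labelled plates and no bound above 1 was reached on all 3 scalings. Without normalization Ikbkb turned to -0.16, and Nfkb2 and Nfkbia kept their direction at 0.44 and 0.49 but were not called (limma adjusted p = 0.0630 and 0.0652). Only Nfkb1, Nfkb2, Rel and Nfkbia, of the 10, were higher in BV2 on all 3 scalings. Not every probe shared this, since the normalized differences ran from -0.01 to 1.94 for Nfkb2 and from -0.26 to 1.73 for Nfkbia. For Nfkbia 1 of the 3 probes had all BV2 plates above all AtT20-labelled plates.

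Rela and Nfkbib read lower in BV2 than on the AtT20-labelled plates, with differences of -0.79 ± 0.20 and -0.85 ± 0.13 (SE, limma adjusted p = 0.00264 and 3.87e-05). Both turned relative to the seminal proteins, to 0.17 and 0.22, which were not called. The Rela value rested on 1 probe, with deposited intensities of 14.17, 13.58, 13.06 and 12.19 on the 4 plates labelled AtT20, while the other 2 read 10.28 to 11.57 and were at background. With the median of the probes, Rela was higher in BV2, by 0.80 (limma adjusted p = 0.00157), and was no longer detected on the AtT20-labelled plates. Nfkbie was called lower in BV2 (limma adjusted p = 0.0189), with both lines under the threshold. Relb and Ikbkg were not called, at 0.04 with a 95% interval from -0.29 to 0.38 and 0.07 with one from -0.22 to 0.35 (limma adjusted p = 0.811 and 0.656), and relative to the seminal proteins both were called higher in BV2, at 1.28 and 1.01.

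Between N18 and the AtT20-labelled plates, 2 genes were called higher in N18 and 5 lower, against 26.7% and 46.6% of all genes and transcripts tested, 73.3% in all. The plates did not overlap for 3 genes with N18 above and 5 with N18 below, against 24.9% and 43.3% of everything tested. Ikbkb and Nfkb1 were called higher in N18 (limma adjusted p = 7.70e-06 and 2.06e-05). Both were under the threshold on all 4 AtT20-labelled plates, no bound above 1 was reached on all 3 scalings, and neither was called without normalization. Rela, Nfkbia and Relb were lower in N18, with differences of -1.44, -0.97 and -0.72. Their probes disagreed, running from -2.63 to 0.72 for Rela, from -1.92 to 0.11 for Nfkbia and from -1.04 to 0.07 for Relb. With the median of the probes Rela was at 0.20 and was not called (limma adjusted p = 0.286). Nfkbib and Nfkbie were called lower as well, with Nfkbib under the threshold on every N18 plate, where no bound above 1 was reached, and Nfkbie under it on all 12 plates. The counts depended on the scale. Relative to the seminal proteins 7 genes were called higher in N18 and 0 lower, with Nfkbia at 0.99 and Relb at 0.88. On that scale 77.1% of everything tested was called, and 78.7% of those calls were higher in N18. Without normalization 0 of the 10 genes were called higher in N18. There 81.8% of everything tested was called, and 23.8% of those calls were higher in N18. The comparison shares its arrays with the other 2, so the 3 sets of values are not independent.

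The order of the lines is given relative to the seminal proteins. On that scale the median over everything tested was 0.54 for N18 minus AtT20, with 78.7% of all calls higher in N18. For BV2 minus N18 the median was -0.18, with 26.4% of all calls higher in BV2. The share of all genes whose plates did not overlap was not counted on that scale. For Nfkb1, Nfkb2, Rel, Relb and Nfkbia the mean level over the seminal proteins fell from BV2 to N18 to the AtT20-labelled plates, and the plates of neighbouring lines did not overlap for any of them. This order of N18 and the AtT20-labelled plates depended on the scale. After quantile normalization Nfkbia and Relb were higher on the AtT20-labelled plates, Nfkb2 was at -0.02 (N18 minus AtT20), and without normalization Nfkb2, Rel, Relb and Nfkbia were all lower in N18, at -0.26, -0.54, -0.51 and -0.40, of which Rel and Relb were called. For Ikbkb and Ikbkg the order was N18, BV2 and the AtT20-labelled plates, with the plates of N18 and BV2 overlapping for Ikbkg and not for Ikbkb. For Rela all 3 lines overlapped. For Nfkbib, BV2 was above N18 without overlap, and the AtT20-labelled plates overlapped both.

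Nfkb1, which had the widest gap, was set against the 12171 genes detected in at least 1 line. The genes whose 12 normalized values were most like those of Nfkb1 were Jdp2, a repressor of the AP-1 family, at r = 0.995, Bcat2, the mitochondrial branched-chain aminotransferase, at 0.994, and Myd88, the adaptor of Toll-like and interleukin-1 receptors, at 0.994 (Pearson). The 12 points share 3 lines, so these values describe a common order of the lines, and no p was computed.

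Other genes of the pathway were read from 6 lists by role, and the largest adjusted p among those named by the rule was 0.00804, for Ikbip (limma). The counts of all 6 lists stand beside shares over everything tested of 35.8% called higher in BV2 and 25.9% higher in N18, 61.7% in all. Relative to the seminal proteins 56.8% was called, and 26.4% of those calls were higher in BV2. Without normalization 44.7% was called, and 23.7% of those calls were higher in BV2. Of 12 other IkB and IKK genes, 7 were higher in BV2 than in N18, 3 were lower and 2 were not called. Bcl3, a nuclear IkB that binds Nfkb1 and Nfkb2 homodimers, was at least 4.1-fold higher in BV2, with levels over the seminal proteins of 2.79 ± 0.27 in BV2 and 0.35 ± 0.15 in N18 (SD, n = 4). Nfkbiz, another nuclear IkB, differed by 2.13, and Ikbke, an IKK-related kinase gene, was at least 2.8-fold higher in BV2. Tbk1, its close relative, and Ikbip were lower in BV2, with differences of -0.46 and -0.25.

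Of 9 ligands 8 were higher in BV2 and none was lower, with a median difference of 1.15. Limited to genes detected in BV2 or N18, 6 of 7 were higher. Relative to the seminal proteins 7 of the 9 were called higher and 1 lower, and without normalization 6 were higher and 0 lower. The Il1a levels over the seminal proteins were 3.52, 2.42, 2.70 and 3.37 on the BV2 plates and 0.35, 0.09, 0.13 and 0.23 on the N18 plates, at least 4.7-fold higher in BV2. Il1b was at least 3.0-fold and Tnf at least 2.2-fold higher in BV2, and both, like Il1a, were under the threshold on every N18 plate. These 3 genes encode the inflammatory cytokines that act on the pathway from outside the cell and are among its known targets.

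Of 16 receptors 10 were higher in BV2, 4 were lower and 2 were not called. Tlr7, the sensor of single-stranded RNA, was at least 2.0-fold higher, Tlr2, the sensor of bacterial lipopeptides, differed by 1.98, and Tnfrsf1b, the second TNF receptor, was at 2.58 ± 0.42 over the seminal proteins in BV2 and at 0.67 ± 0.09 in N18 (SD, n = 4), where its mean was under the threshold. The first TNF receptor, Tnfrsf1a, was lower in BV2, with a difference of -0.61, and was detected in both lines, at 2.98 ± 0.33 in BV2 and 4.16 ± 0.24 in N18 (level over the seminal proteins, SD, n = 4). Tnfrsf13c, the receptor of the B cell factor BAFF, was at least 1.1-fold higher in N18, and Il1rap, the co-receptor of interleukin-1, was at 0.46 ± 0.16 in BV2, with its mean under the threshold, and at 1.09 ± 0.20 in N18.

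Of 30 adaptors and kinases 18 were higher in BV2, 6 were lower and 6 were not called. Myd88 differed by 2.90, with levels over the seminal proteins of 4.61 ± 0.34 in BV2 and 2.48 ± 0.25 in N18 (SD, n = 4). Irak1, a kinase that Myd88 recruits, differed by 1.47. Ripk2, the kinase of the NOD receptors, was at 2.56 ± 0.37 in BV2 and at 0.48 ± 0.22 in N18, where its mean was under the threshold. Tab2, which links the kinase TAK1 to ubiquitin chains, and Map3k3, a kinase, were lower in BV2, with differences of -0.91 and -0.65. Card10, a scaffold, was called lower as well, with its mean under the threshold in BV2, at 0.52 ± 0.14, and at 1.43 ± 0.13 in N18. This list was the one most moved by the scale, with 9 higher, 9 lower and 12 not called relative to the seminal proteins.

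Of 13 genes that act as brakes 7 were higher in BV2, none was lower and 6 were not called. Irak3, a kinase-like protein that holds back the Myd88 complex, differed by 2.72, Tnip1, a partner of the ubiquitin editor A20, by 2.03, and Otulin, which removes linear ubiquitin chains, by 2.02. Tnfaip3, the A20 gene itself, was looked up after these values were seen. It is among the 7 and was under the threshold on all 12 plates. On the scale of the seminal proteins 6 of the brakes were called higher in BV2 and 3 lower.

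Of 27 known target genes 21 were higher in BV2, 3 were lower and 3 were not called, with a median difference of 1.65. Ptgs2, the inducible cyclooxygenase, read 5.31, 4.87, 4.92 and 5.37 over the seminal proteins on the BV2 plates and -0.48, -0.45, -0.42 and -0.39 on the N18 plates, at least 20.7-fold higher in BV2. Saa3, a serum amyloid A gene, differed by 4.63 and Lcn2, an iron-binding acute phase protein, by 4.60. Cxcl1, a neutrophil chemokine gene, was the reverse. It was under the threshold on every BV2 plate and at 0.97 ± 0.24 over the seminal proteins in N18 (SD, n = 4), which bounds N18 only as at least 1.0-fold higher. Vcam1, an adhesion molecule, was at least 1.3-fold higher in N18, and Cd83 was called lower in BV2 with its mean under the threshold in both lines. The list had 18 genes called higher in BV2 and 4 lower relative to the seminal proteins, where 26.4% of all calls were higher in BV2.

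**Figure D4:**
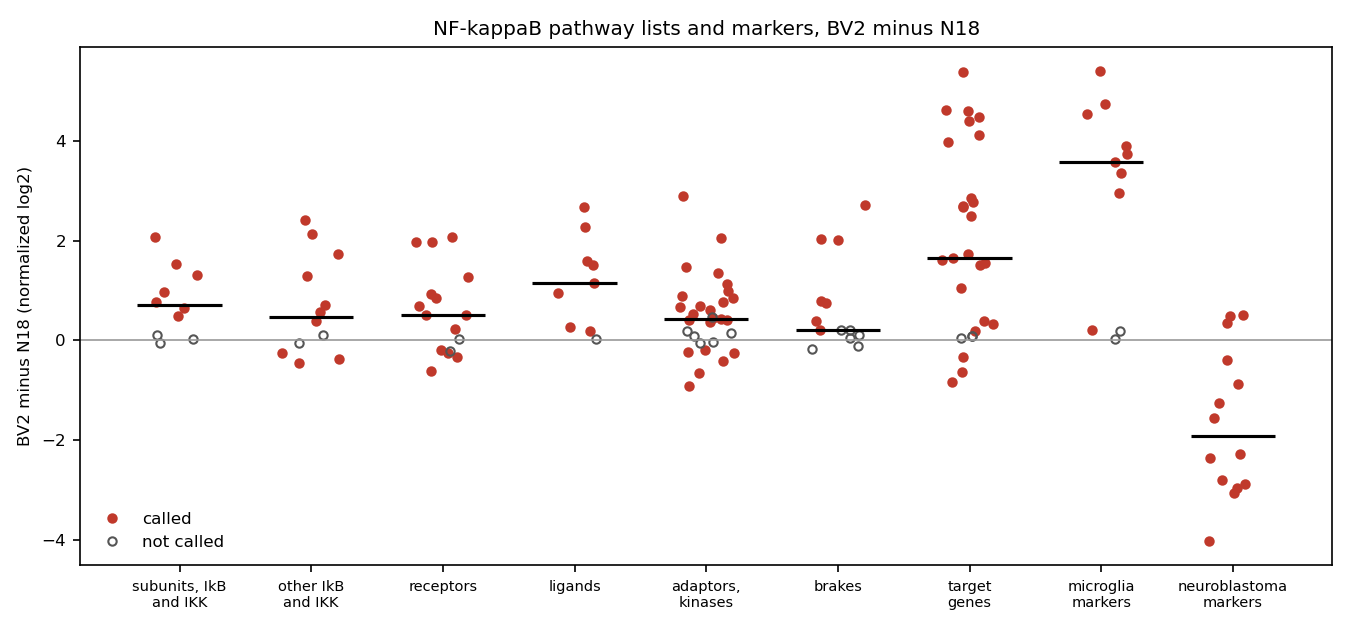
BV2 minus N18 (normalized log2, vertical axis) of every measured gene of the 10 NF-kappaB genes, 6 pathway lists and 2 marker lists. Filled points were called by limma, open points were not, and black bars are medians. The target genes had a median of 1.65 and the NF-kappaB genes of 0.71, and the microglia and neuroblastoma markers lay at 3.58 and -1.92.

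The markers of the lines moved with these gene groups. Of 11 microglia markers 9 were higher in BV2 and none was lower, and their summed level over the seminal proteins ran from 33.0 to 39.1 on the BV2 plates, from 3.94 to 5.01 on the N18 plates and from -0.32 to 1.62 on the AtT20-labelled plates. Cd14 and Csf1r, the receptor of the growth factor that keeps microglia alive, were at background in N18, and C1qa, a complement gene, had its mean under the threshold in all 3 lines. Of 14 neuroblastoma markers 11 were lower in BV2 and 3 were higher. Their part in the differences of the NF-kappaB genes was not tested. Cell type and line cannot be told apart here, since each cell type is 1 line, and neither can line and slide if each slide of 4 arrays held 1 line, which the labels do not give.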

How the data were processed

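Total RNA of 4 plates of each of 3 mouse lines was labelled with Cy3 after oligo(dT)-primed synthesis and hybridised to NimbleGen mouse arrays, 1 per plate. As deposited, the values are log2 intensities that the authors made, 1 for each of 72000 probes on 12 arrays. Neither background subtraction nor normalization between arrays is described in the sources used here, and the array medians differed. At most 0.1% of an array was at the scanner limit. Precision is limited by the number of arrays.

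Probes were grouped into 25631 targets (transcripts), of which 69.4% were given a symbol through a RefSeq table. All 12 arrays were quantile-normalized, the probes of a target averaged on the linear scale, and the targets of a gene averaged on the log2 scale. Each pair of lines was fitted on its own 8 arrays with limma 3.58.1 (lmFit, eBayes with trend) in R 4.3.3. The scripts were tested on simulated data in which 200 of 25128 genes were changed by known amounts. Changes of 0.5 log2 were recovered for 76% of them in BV2 minus N18 and for 0% in both comparisons with AtT20. Changes of 1 were recovered for 97% in BV2 minus N18, 73% in BV2 minus AtT20 and 80.5% in N18 minus AtT20. Far more genes were called in the real data, so these shares need not hold there. Detection followed the authors' rule on 10 seminal proteins. Where every plate of 1 line was under its threshold, a fold is given only as a bound, and none where the bound was under 1 on any of 3 scalings. Other work was done in Python 3.11.15 with numpy 2.4.6, pandas 2.3.3 and matplotlib 3.10.9.

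The 10 genes, the lists, the markers and the tests were chosen with earlier results of these data known. Of each pathway list the called genes that differed most between BV2 and N18, up to 3 each way, are named, except 1 that is not reported here, and other names are said to be chosen later. The 3 genes most like Nfkb1 were taken by Pearson correlation. Alternatives covered normalization, probe summary, background correction (normexp, offset 50), a filter on dim genes, the replicate number as a block, all 12 arrays in 1 fit, leaving out each plate, and 7 changes of the detection rule or its controls.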

Additional observations from a re-analysis of the deposited data

Results flagged for a closer look

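In 4 of 60 sets of 4 plates of the 10 genes (10 genes, 3 lines and 2 scales), 1 plate lay far from the other 3, by Dixon's test which flags about 1 set in 20 by chance. The Nfkb2 level over the seminal proteins on AtT20 plate 3 was -0.056, against 0.26 to 0.31 on the others. The Rel normalized value on the same plate was 10.16, against 10.34 to 10.37. Rela on BV2 plate 3 had a normalized value of 11.04, against 11.35 to 11.36. The Rela level over the seminal proteins on N18 plate 2 was 1.24, against 0.89 to 0.94.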

How the results depend on the processing

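In BV2 against N18, 7 genes were called in each fit that left out a plate, and the pathway genes named by the rule kept their direction under every alternative run. Ikbip and Il1rap were not called with all 12 arrays in 1 fit, at -0.25 (limma adjusted p = 0.130) and -0.25 (limma adjusted p = 0.0781). Called genes fell to 5 without normalization and rose to 9 relative to the seminal proteins. Of those 9, 2 were higher in N18, with Ikbkb at -0.39 and Ikbkg at -0.40. Over everything tested the shares called were 61.7%, 44.7% without normalization and 56.8% relative to the seminal proteins. Without normalization Ikbkb was at -0.36 and Ikbkg at -0.37, and Ikbkb ran from -0.020 to 0.082 as plates were left out. Of all calls 58.0% were higher in BV2, 23.7% without normalization and 26.4% relative to the seminal proteins, with medians of all genes at 0.06, -0.15 and -0.18. Nfkbie is not in the fit limited to detected genes.

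For BV2 against the plates labelled AtT20, 36.3% of all calls were higher in BV2, 13.3% without normalization and 74.6% relative to the seminal proteins (medians -0.23, -1.08 and 0.28). In the same order, 68.8%, 85.5% and 66.4% of everything tested was called. Without normalization 5 genes were called, 2 of them higher in BV2, with Relb at -0.082, Ikbkb at -0.16 and Ikbkg at -0.35. Relative to the seminal proteins 0 were called higher in AtT20, with Rela at 0.17 and Nfkbib at 0.22. The mean of log2 probes put Rela at 0.076. The median of probes put it at 0.80 and left 1 gene called higher in AtT20. With that summary 58.4% of everything tested was called, and 45.8% of those calls were higher in BV2. Leaving out plates gave 7 to 8 called genes and Relb from -0.069 to 0.14.

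For N18 against the plates labelled AtT20, 36.4% of all calls were higher in N18, 23.8% without normalization and 78.7% relative to the seminal proteins (medians -0.25, -0.85 and 0.54). In the same order, 73.3%, 81.8% and 77.1% of everything tested was called. Without normalization 0 genes were called higher in N18, with Rel at -0.54 and Ikbkg at 0.023. Relative to the seminal proteins 7 were called higher in N18 and 0 higher in AtT20, with Nfkb2 at 1.13, Relb at 0.88, Nfkbia at 0.99, Nfkbie at 0.14 and Ikbkg at 1.41. The mean of log2 probes put Nfkb2 at 0.21 and Ikbkg at 0.045. The median of probes put Nfkb2 at 0.54, Rela at 0.20 and Ikbkg at 0.13 and left 3 genes called higher in AtT20. With that summary 63.8% of everything tested was called, and 46.2% of those calls were higher in N18. Leaving out plates gave 6 to 8 called genes, Nfkb2 from -0.092 to 0.038 and Ikbkg from -0.11 to 0.0034. The cause of these shifts was not tested.

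With the replicate block, 7, 8 and 6 genes were called in the 3 comparisons, and Nfkbie, N18 against AtT20, was lost at -0.27 (limma adjusted p = 0.0714). Of everything tested, 62.0%, 68.7% and 72.7% was called with the block. The labels do not say whether same-numbered plates were handled together. In each comparison 1 of 4 same-numbered pairs correlated over 0.1, at most 0.32, in BV2 against N18. Not every plate correlated best with its own number. So few pairs cannot settle whether the plates were paired.

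Detected genes fell to 2 in AtT20, 7 in BV2 and 4 in N18 with olfactory receptor genes as controls, and to 3 in AtT20 where each of the 4 plates had to pass. Quantile normalization of the 8 arrays of a pair and at least 2 probes above the threshold were chosen after seeing the data.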
